A study of Mus musculus with 6 samples.

Results

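Cholesterol is built in the cytosol and the endoplasmic reticulum from acetyl units, through mevalonate and squalene, and many genes of this route are switched on by the SREBP transcription factors. The report concerns 8 genes of this route on the array: 7 encode enzymes, namely Hmgcs1, Idi1, Fdft1, Sqle, Lss, Cyp51 and Dhcr7, and 1, Insig1, encodes a regulator of the SREBP factors. They were chosen by name: all probe sets whose only gene symbol is one of the 8 were taken, 20 of the 45037 probe sets on the array, and 8 of the 18193 genes named on it. None of the 8 encodes a lipoprotein receptor, so cholesterol uptake is described through a separate list.

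When sterols are plentiful in the endoplasmic reticulum, INSIG proteins hold the escort protein SCAP and its cargo SREBP there, and the genes of the route are quiet. When sterols run low, SCAP carries SREBP to the Golgi, where proteases release the active factor. SREBF2 mainly drives cholesterol genes and SREBF1 mainly fatty acid genes, and INSIG1 is itself a target, which closes a feedback loop.

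The values come from total RNA of whole mesenteric arteries, which feed the intestine, of 6 mice, each on its own Affymetrix array. The control group held mice 30, 74 and 75, which carried loxP-flanked beta1 integrin (Itgb1) alleles and no Cre recombinase. The knockout group held mice 72, 73 and 86, which carried the same alleles and Cre driven by the promoter of SM22alpha, a smooth muscle gene. Mice of both groups were of a mixed background that included FVB, SVJ129 and C57BL/6, were given tamoxifen from an age of 5 weeks in 14 daily doses of 1 mg each, and were 7 weeks old at the end, so tamoxifen and the floxed alleles were common to both groups. Adipose and lymph tissue had been removed from the vessels before extraction. In whole arteries, fewer cells of a type and less RNA per cell cannot be told apart.

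Signals are log2(intensity + 1) after quantile normalization between arrays, and a gene with several probe sets is given by the brightest of them. Median intensities lay between 62.8 and 72.6. The smooth muscle marker Acta2 stood at 13.95 to 14.10 on all 6 arrays, and the targeted gene Itgb1 at 11.04 to 11.80 in control and 10.51 to 10.76 in knockout arteries. The Itgb1 difference was -0.73 (interval -1.24 to -0.22), or 60.1% of control. It was not past an adjusted p of 0.05 (limma adjusted p = 0.127). Acta2 lay near the top of the normalized scale, so its even signal does not show an equal content of smooth muscle. Of the 8 smooth muscle markers, 7 were lower in the knockout, beside 6057 of the 10654 genes tested. Their median difference was -0.34, beside -0.05 over all genes tested. The adipocyte marker Adipoq also had a high signal, 11.31 to 13.53. The labels mark knockout 86 with F and the other 5 mice with M. Xist, the RNA of the inactive X chromosome, stood at 11.83 in knockout 86 and at 5.29 to 6.09 in the others, so sex cannot be told apart from that mouse.

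The 8 genes did not separate the groups. Of the 8, limma called 0 at an adjusted p under 0.05 and 0 at an unadjusted p under 0.05, against 2.42% and 21.4% of the 10654 genes tested. The adjusted calls were 1.76% of genes for higher and 0.657% for lower signal in the knockout. In 0 of the 8 did the groups fail to overlap, against 28.1% of all genes tested. Differences between knockout and control ran from -0.67 to 0.50 on the log2 scale, with 3 genes higher and 5 lower in the knockout and a median of -0.22, beside -0.05 over all genes tested. What the 8 genes shared was an order of mice: in each of them the 2 highest signals were those of control 74 and knockout 72, which was so in 4.46% of all genes tested. This order was noticed in the values and is given as a description.

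The entry enzyme of the route, HMG-CoA synthase, is encoded by Hmgcs1. Its signal was 10.20, 10.81 and 10.42 in controls 30, 74 and 75 and 11.08, 10.50 and 10.47 in knockouts 72, 73 and 86. Knockout 72 was highest and control 74 next, and the other 4 mice lay close together. The knockout mean was higher by 0.21 (95% confidence interval -0.33 to 0.74, limma adjusted p = 0.634). A 2-fold change in either direction lay outside this interval, which holds only for the probe set used and the main fit. With array weights the difference was 0.51 (SE 0.21), and another Hmgcs1 probe set differed by 0.43.

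Idi1 encodes the isomerase that makes the reactive isoprene unit. It stood at 8.49, 9.31 and 8.24 in the controls and at 9.27, 8.13 and 7.85 in the knockouts. Control 74 and knockout 72 were almost equal at the top and knockout 86 was lowest, with a difference between groups of -0.26 (interval -1.27 to 0.74, limma adjusted p = 0.751).

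Squalene is made by the enzyme of Fdft1 and oxidised by that of Sqle, a control point of the later route. Fdft1 signals were 8.07, 8.97 and 8.60 in controls and 9.11, 8.23 and 7.79 in knockouts. Knockout 72 was highest and control 74 second, knockout 86 was lowest, and the groups overlapped (difference -0.17, interval -1.05 to 0.71, limma adjusted p = 0.825). Sqle stood at 7.68, 8.45 and 7.38 in controls and at 8.86, 8.0 and 8.15 in knockouts. It had the largest positive difference of the 8, 0.50 (interval -0.29 to 1.29, limma adjusted p = 0.424), with control 74 the only control above any knockout.

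Lss encodes the synthase that closes squalene epoxide into lanosterol, the first sterol. Its signals were 7.13, 8.72 and 6.50 in controls and 7.70, 6.57 and 6.44 in knockouts, a 4.86-fold span over the 6 mice. Control 74 stood 1.90 above the mean of the other 2 controls, so the difference of -0.55 carried a wide interval (-1.96 to 0.87, limma adjusted p = 0.628).

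Cyp51, the lanosterol demethylase gene, stood at 8.28, 9.28 and 7.71 in controls and at 9.24, 8.22 and 8.16 in knockouts. Its 2 highest mice, one in each group, were almost equal, and the group means differed by 0.12 (interval -0.95 to 1.18, limma adjusted p = 0.908). Dhcr7, whose enzyme makes cholesterol in the last step, stood at 7.08, 8.84 and 7.37 in controls and at 7.51, 7.35 and 6.41 in knockouts. Here control 74 lay apart from the other 5 mice, knockout 72 stood barely above control 75, and the 6 mice spanned 5.37-fold. The difference of -0.67 was the largest negative one (interval -1.85 to 0.52, limma adjusted p = 0.476).

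Insig1, which encodes the sterol-dependent anchor of SCAP, stood at 10.09, 11.43 and 10.77 in controls and at 11.16, 9.99 and 9.70 in knockouts. Control 74 and knockout 72 were again first and second, control 75 followed, and the group difference was -0.48 (interval -1.57 to 0.61, limma adjusted p = 0.579).

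**Figure D1:**
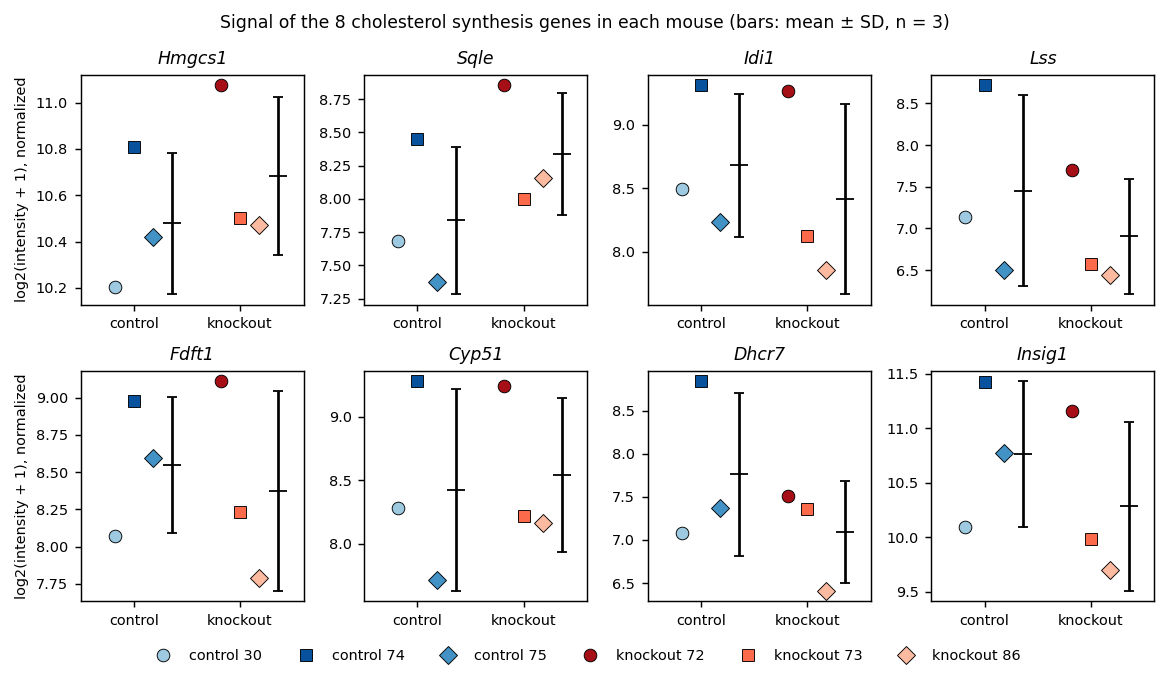
Normalized log2(intensity + 1) of each of the 8 genes (vertical axes, each with its own range) in the 6 mice, by group, with the mean ± SD of 3 mice beside each group. Control 74 (dark blue squares) and knockout 72 (dark red circles) are the 2 highest points in all 8 panels, and the groups overlap in each.

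Control 74 was the highest of all mice in 5 of the 8 genes, Idi1, Lss, Cyp51, Dhcr7 and Insig1, and knockout 72 in the other 3, Hmgcs1, Sqle and Fdft1. Over all genes tested, control 74 was highest in 24.6% and knockout 72 in 6.30%. Knockout 86 was lowest in 5 of the 8, against 25.1% of all genes. Within its own group, control 74 stood 0.49 to 1.90 above the mean of the other 2 controls, and knockout 72 stood 0.59 to 1.31 above the mean of the other 2 knockouts. Averaged over the 8 genes, the deviation from each gene's mean was 0.82 in control 74 and 0.58 in knockout 72. It was -0.28 in control 30, -0.29 in control 75, -0.29 in knockout 73 and -0.54 in knockout 86. The 3 middle mice differed by less than 0.01, so their order carries no information.

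The genes thus varied between mice of a group more than most genes did. Their within-group SD had a median of 0.68 and ran from 0.32 for Hmgcs1 to 0.95 for Lss, and the median over all genes tested was 0.21. Each of the 8 lay above the 75th percentile of within-group SD over all genes tested, and 5 of them above the 95th. All 28 pairs of the 8 genes had a positive Pearson correlation over the 6 arrays, from 0.34 for Sqle with Dhcr7 to 0.97 for Fdft1 with Insig1, given as a description over 6 mice. Control 74 and knockout 72 were the 2 highest mice in all 8 genes, and these correlations were not computed without them.

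The order of mice recurred between probe sets. Of the 20 probe sets, 15 lay above the filter on low signal, set at a log2 mean of 6.50, and limma by probe set called 0 of these 15, against 1.51% of all 17473 probe sets tested. Control 74 and knockout 72 were the 2 highest mice in 14 of the 15. The exception was the dimmest Hmgcs1 probe set, with a mean of 6.52. For Hmgcs1, 2 probe sets had almost the same mean: the one used, which carries the suffix x for probes shared with similar sequences, differed by 0.21 between groups, and the one without a suffix by 0.05. The remaining Hmgcs1 probe sets differed by 0.13, 0.43 and 0.09, in order of falling mean. The probe set used for Fdft1 also carries the suffix x, and the one used for Lss the suffix s. The second Idi1 probe set differed by -0.13, the second Lss probe set by -0.77 and the second Fdft1 probe set by -0.18. Of the 5 probe sets below the filter, with means from 3.46 to 6.09, 2 had the same 2 mice on top, both of Cyp51.

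Promoter windows of 300 bases, from 250 before to 50 after the annotated start, were available from RefSeq (GRCm38.p6) for 6 of the 8 genes. They are shown for 3 genes as a description, with letters that SREBP or its partners are known to bind. A link between these letters and the signals was not tested. Searched on both strands were the sterol element TCACNCCAC, the CCAAT box of NF-Y, the GC box GGGCGG of the Sp1 family and the E-box CACGTG. Matches are in capitals, and no match overlaps another.

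Hmgcs1 (chr13:119690101-119690400, plus strand): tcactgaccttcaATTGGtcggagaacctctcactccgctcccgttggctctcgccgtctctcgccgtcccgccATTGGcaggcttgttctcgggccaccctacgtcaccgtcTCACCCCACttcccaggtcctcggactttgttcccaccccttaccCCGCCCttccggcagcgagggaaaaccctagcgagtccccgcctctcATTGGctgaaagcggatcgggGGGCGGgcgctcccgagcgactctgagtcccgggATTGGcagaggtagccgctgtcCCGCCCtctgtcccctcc

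Insig1 (chr5:28071162-28071461, plus strand): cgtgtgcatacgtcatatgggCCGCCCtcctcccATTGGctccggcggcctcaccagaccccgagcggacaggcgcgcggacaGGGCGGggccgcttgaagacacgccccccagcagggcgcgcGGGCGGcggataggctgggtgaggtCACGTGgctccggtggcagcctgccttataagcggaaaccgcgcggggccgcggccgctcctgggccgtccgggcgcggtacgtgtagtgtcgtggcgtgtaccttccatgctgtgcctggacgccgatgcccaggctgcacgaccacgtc

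Idi1 (chr13:8885356-8885655, plus strand): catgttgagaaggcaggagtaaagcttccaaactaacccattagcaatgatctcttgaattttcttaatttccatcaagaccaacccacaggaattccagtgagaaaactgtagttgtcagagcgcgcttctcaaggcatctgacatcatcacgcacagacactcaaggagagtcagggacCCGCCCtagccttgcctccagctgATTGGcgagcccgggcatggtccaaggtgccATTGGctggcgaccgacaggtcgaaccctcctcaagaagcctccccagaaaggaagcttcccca

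The Hmgcs1 window holds 1 sterol element, 137 bases before the start, with 4 CCAAT boxes and 3 GC boxes around it. The Insig1 window holds an E-box 101 bases before the start, 1 CCAAT box and 3 GC boxes, and the Idi1 window 2 CCAAT boxes and 1 GC box. The 6 genes have 8 windows, since Dhcr7 has 3. Of the 8 windows, 1 holds a sterol element of this spelling, 6 a CCAAT box, 7 a GC box and 2 an E-box. Among all 32851 windows of this length in the table, 1.24% hold the sterol element, 37.4% a CCAAT box, 35.7% a GC box and 7.15% an E-box. These are letter matches and not sites, and a window without a match says only that these letters are not in it.

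Other enzymes of the same route gave the same picture. Of these, 11 were tested. Limma called 0 of the 11 at an adjusted p and 0 at an unadjusted p under 0.05, where 21.4% of all genes tested stood. The median difference of the 11 was 0.05, with 6 higher and 5 lower. In 7 of the 11 the 2 highest mice were again control 74 and knockout 72: Mvk and Pmvk, which encode the kinases of mevalonate and phosphomevalonate, Fdps, which encodes farnesyl diphosphate synthase, and the sterol enzyme genes Msmo1, Nsdhl, Hsd17b7 and Sc5d. Fdps stood at 8.46, 10.13 and 8.34 in controls and at 9.99, 8.89 and 8.69 in knockouts, a difference of 0.21 (interval -1.09 to 1.51, limma adjusted p = 0.855). Pmvk had the largest difference of the 11, -0.89 (interval -2.12 to 0.35, limma adjusted p = 0.368), with control 74 at 9.58 and the other mice at 7.00 to 8.33.

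The remaining 4 enzyme genes had other orders of mice. Mvd, the decarboxylase gene of the mevalonate steps, was highest in control 75 at 8.25 and differed by -0.14 (adjusted p = 0.769 in limma). Tm7sf2, a sterol reductase gene, was highest in control 74 at 8.20 but stood at 7.11 in knockout 72 (difference -0.40, limma adjusted p = 0.506). Ebp, a sterol isomerase gene, spanned only 8.90 to 9.29. Lbr, which encodes a lamina protein that also has sterol reductase activity, was lowest in control 74 at 10.42 and highest in knockout 86 at 10.90 (difference 0.19, interval -0.13 to 0.51, limma adjusted p = 0.448).

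**Figure D2:**
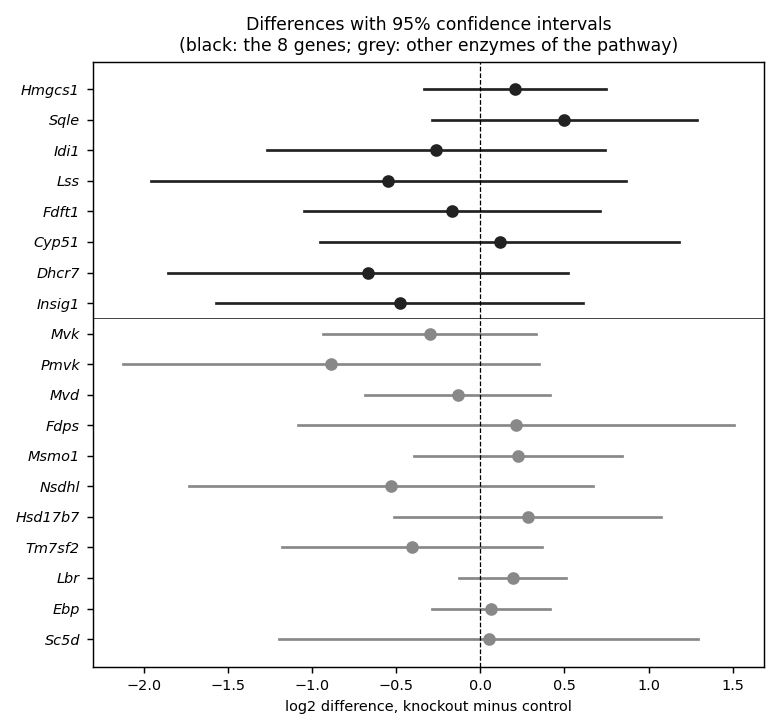
Knockout minus control difference in log2 signal (horizontal axis) of the 8 genes in black and of 11 other enzymes of the route in grey. Points are limma estimates and lines are 95% confidence intervals. Every interval spans 0, from Pmvk at -0.89 to Sqle at 0.50.

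The SREBP machinery was steadier than the enzymes, with Srebf1 as the exception. Srebf1 stood at 10.09, 11.40 and 10.94 in controls and at 11.29, 10.39 and 9.84 in knockouts. Its 2 highest mice were control 74 and knockout 72 and its lowest knockout 86, with a difference of -0.30 (interval -1.36 to 0.76, limma adjusted p = 0.731). Srebf2, the main factor of cholesterol genes, spanned only 8.23 to 8.63 and was highest in knockout 73 (difference 0.15, interval -0.17 to 0.47, limma adjusted p = 0.553). The escort gene Scap spanned 10.08 to 10.20, and the paralog Insig2 spanned 9.26 to 9.69, with differences of -0.02 (limma adjusted p = 0.924) and 0.05 (limma adjusted p = 0.874). Of 9 regulators tested limma called 0 at an adjusted p and 1 at an unadjusted p under 0.05, where 21.4% of all genes tested stood. That 1 was Erlin1, which encodes a membrane protein of the endoplasmic reticulum, at 8.76 to 8.94 in controls and 9.12 to 9.16 in knockouts (difference 0.30, adjusted p = 0.204). Mbtps2, which encodes a protease that releases SREBP, also had control 74 and knockout 72 as its highest mice, within a span of 8.30 to 8.53.

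Uptake and lysosomal genes did not follow the 8 genes. In 0 of 10 tested were control 74 and knockout 72 the 2 highest mice. Limma called 0 of 10 at an adjusted p and 1 at an unadjusted p under 0.05, where 21.4% of all genes tested stood. That 1 was Vldlr, which encodes a receptor of triglyceride-rich lipoproteins: it stood at 10.55, 10.30 and 10.16 in controls and 9.64, 9.85 and 9.86 in knockouts (difference -0.55, interval -0.90 to -0.20, limma adjusted p = 0.109). Lrp1, a large endocytic receptor gene, differed by 0.42 (limma adjusted p = 0.249), and its groups did not overlap either. Such separation was seen in 2 of the 10 genes, against 28.1% of all genes tested. The lysosomal lipase gene Lipa stood at 11.37 in knockout 73 and at 9.02 to 9.76 in the other mice (difference 0.69, limma adjusted p = 0.489). Mylip, which encodes a ubiquitin ligase, differed by -0.21 (limma adjusted p = 0.636).

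Among genes of efflux, esterification and oxysterols, limma called 1 of 8, Ch25h, beside a background of 1.76% of genes called higher. Ch25h encodes cholesterol 25-hydroxylase, which makes an oxysterol known to bind INSIG and keep SREBP in the endoplasmic reticulum. It stood at 5.50, 6.03 and 5.41 in controls and at 7.28, 7.57 and 7.54 in knockouts, so that the groups lay well apart. The rise was 1.82 on the log2 scale (SE 0.20, interval 1.35 to 2.28, 3.52-fold, limma adjusted p = 0.0097), and it was past the threshold in all 6 fits that left out 1 mouse, with a highest adjusted p of 0.0451. Its control signals lay under the filter level of 6.50, so it was tested through its knockout signal and the size of the rise depends on the pseudocount.

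Ch25h is also an inducible gene of macrophages. The 9 macrophage markers had list means of 8.13 to 9.04 in controls and 9.54 to 11.21 in knockouts, with 6 of the 9 not overlapping and 0 past the limma threshold at an adjusted p, against 8 at an unadjusted p under 0.05. Over all genes tested, 28.1% did not overlap and 21.4% had an unadjusted p under 0.05. Knockout 73 had the highest macrophage mean and knockout 86 the lowest of the knockouts, while their Ch25h signals were almost equal. The part of macrophages in the Ch25h difference was not tested.

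In the same list, Cyp7b1, which encodes an oxysterol hydroxylase, differed by 0.64 (adjusted p = 0.213 in limma), with control 75 at 8.50 above knockout 86 at 8.46. Nr1h3, which encodes an LXR receptor, differed by -0.18 (adjusted p = 0.638), and Abcg1, a cholesterol exporter gene, by 0.24 (adjusted p = 0.83).

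Fatty acid synthesis genes, the main targets of SREBF1, tracked the 8 genes across mice. In 10 of 16 the 2 highest mice were control 74 and knockout 72. Limma called 0 of the 16 at an adjusted p and 2 at an unadjusted p under 0.05, where 21.4% of all genes tested stood. The median difference of the 16 was -0.56, with 13 of 16 lower in the knockout. Over all genes tested the median was -0.05, with 6057 of 10654 lower. Control 74 was the highest mouse in 12 of the 16, so the 13 are not independent decreases. Elovl6, a fatty acid elongase gene named for its spread after the values were seen, stood at 12.52 in control 74, at 9.42 and 9.59 in the other controls and at 10.20, 8.19 and 8.38 in knockouts 72, 73 and 86. Its 20.1-fold span was the widest of the list, and its difference of -1.59 had an interval of -3.75 to 0.58 (limma adjusted p = 0.359). The 2 with an unadjusted p under 0.05 were Acss2, which activates acetate, at -1.57 (adjusted p = 0.194), and the acetyl-CoA carboxylase gene Acacb at -1.44 (adjusted p = 0.196). Acaca and Thrsp, next in order of p, differed by -0.80 (adjusted p = 0.304) and -1.15 (adjusted p = 0.307). By contrast, 0 of 10 genes of the non-sterol isoprenoid branch had control 74 and knockout 72 on top. Limma called 0 of these 10 at an adjusted p and 1 at an unadjusted p under 0.05, where 21.4% of all genes tested stood. That 1 was the ubiquinone synthesis gene Coq2 (difference -0.32, limma adjusted p = 0.182). Pdss2, Dhdds and Nus1, the next by p, differed by -0.28, -0.22 and 0.21 (adjusted p = 0.264, 0.405 and 0.444).

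**Figure D3:**
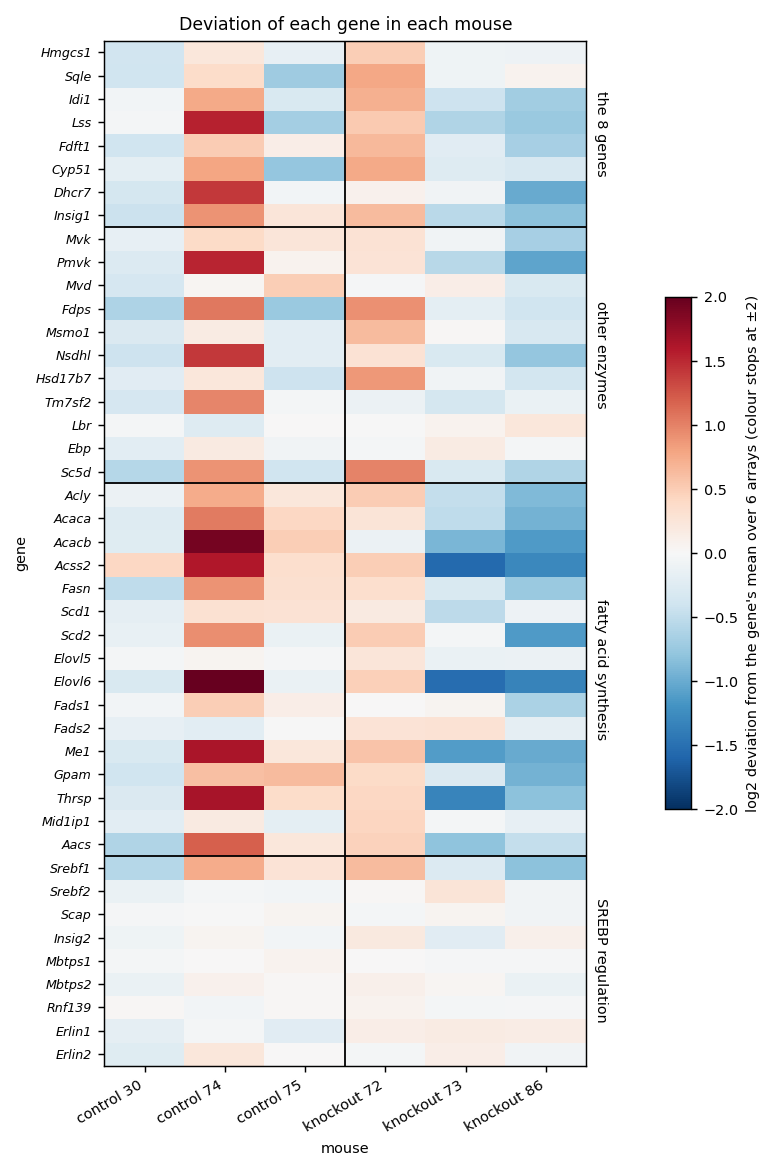
Deviation of each gene (rows) from its own mean over the 6 mice (columns) in log2 units, with colours stopping at ±2, for the 8 genes and for the other enzyme, fatty acid synthesis and SREBP regulation lists. The columns of control 74 and knockout 72 are red through most enzyme rows and through Srebf1, and most other SREBP regulation rows are pale.

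White adipocyte markers moved partly with these genes. The mean of the 5 markers tested was 9.64, 11.78 and 11.36 in controls 30, 74 and 75 and 11.04, 10.88 and 9.93 in knockouts 72, 73 and 86. Limma called 0 of the 5 at an adjusted p and 0 at an unadjusted p under 0.05, where 21.4% of all genes tested stood. Control 74 was highest in 4 of the 5, and in 1 of the 5 were control 74 and knockout 72 the 2 highest mice. The listed markers Adipoq, at 11.31 to 13.53, and Fabp4, at 13.40 to 14.10, were far from 0 on all 6 arrays. Fabp4, like Acta2, lay near the top of the normalized scale, so its signal does not measure adipocyte content. All 5 had a Pearson r above 0.5 with the mean of the 8 genes over the 6 arrays, from 0.51 for Lep to 0.79 for Retn with a median of 0.66, and 16.8% of all genes compared had such an r. Control 75 was second in the adipocyte mean, and among the 8 genes it came next after control 74 and knockout 72 in Fdft1, Dhcr7 and Insig1, lay lower in Idi1, Hmgcs1 and Lss, and was the lowest of the 6 mice in Sqle and Cyp51. Knockout 73 was close to knockout 72 in the adipocyte mean, while the mean of the 8 genes was 9.24 in knockout 72 and 8.37 in knockout 73. The part of adipose tissue in the spread between mice was not tested.

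Other cell type lists had other orders. The pair of control 74 and knockout 72 was on top in 0 of 8 smooth muscle, 0 of 6 endothelial, 0 of 6 fibroblast, 0 of 9 macrophage and 0 of 4 Schwann cell markers. Limma called 0 genes of each of these lists at an adjusted p, and 3, 3, 2, 8 and 4 at an unadjusted p under 0.05, where 21.4% of all genes tested stood. Lower in the knockout were 7 of 8 smooth muscle, 6 of 6 endothelial and 4 of 4 Schwann cell markers. Their median differences were -0.34, -0.47 and -0.74. Higher were 5 of 6 fibroblast and 9 of 9 macrophage markers, with medians of 0.29 and 1.65. Over all genes tested 6057 of 10654 were lower, with a median of -0.05. Of the lymphocyte markers 0 of 6 and of the mesothelial markers 0 of 5 were tested, being under the filter or not analysed here. The 5 proliferation genes tested all rose, by 3.24 to 4.44 (limma adjusted p of at most 0.00176), with list means of 5.92 to 6.15 in controls and 9.73 to 10.49 in knockouts. Their control means all lay under the filter level of 6.50, so like Ch25h they were tested through their knockout signal, and no alternative was run for them. Their values in knockout 72 and knockout 73 were almost the same, 9.83 and 9.73, while the 8 genes differed between these mice.

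**Figure D4:**
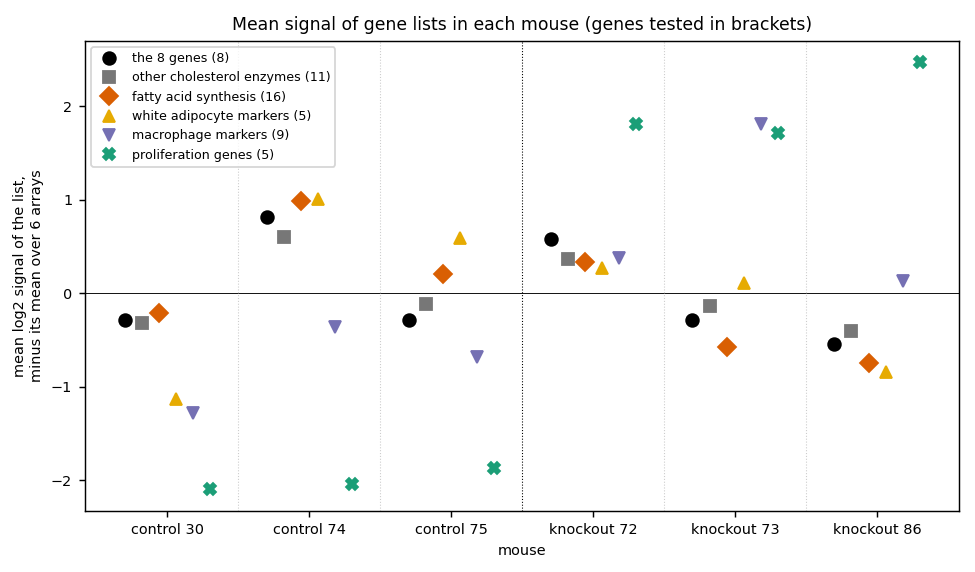
Mean log2 signal of 6 gene lists in each mouse, minus the list's mean over the 6 arrays (vertical axis), with the number of genes tested in brackets. The 8 genes, the other cholesterol enzymes and fatty acid synthesis peak in control 74, with knockout 72 next. Adipocyte markers peak in control 74 and control 75, macrophage markers in knockout 73, and proliferation genes separate the groups.

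The 8 genes were also set against each other. Each gene's signal minus the mean of the other 7 on the same array was compared between groups, 8 comparisons chosen after the values were seen. Sqle stood at -0.80, -1.17 and -1.14 in controls and at -0.44, -0.43 and 0.03 in knockouts, so its groups did not overlap. Of all genes tested, set against the mean of the 8, 3.01% did not overlap, beside 28.1% without this subtraction. The subtraction adds the spread of the 8 between mice to genes that do not share it. The 3.01% is therefore not a like background for Sqle, which was set against the other 7. The relative difference of Sqle was 0.76 (exact permutation p = 0.1, 2-sided, the smallest that 3 against 3 can give, 0.32 after adjustment over the 8). In the other 7 genes the groups overlapped. An exact permutation p of 0.1 in 1 of 8 comparisons does not show that the genes differed in their response. Such a difference, if real, would show unequal signals of these genes and not which of them changed.

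The 6 genes most like the 8 in their order of mice, by Pearson correlation of 10646 other genes tested with the mean of the 8, were Sc5d, Cops3, Gja1, Ccdc47, Mettl1 and Bbs5, with r from 0.96 to 0.97 and Spearman's rho from 0.71 to 0.94 over 6 arrays. They were picked as the highest of 10646 genes over only 6 arrays, where 16.8% had an r above 0.5 and the lowest r was -0.99. Such an r alone therefore does not show that a gene varies with the 8. Sc5d is an enzyme of the same route. Gja1, the connexin gene of gap junctions, stood at 10.01, 11.63 and 10.17 in controls and at 11.04, 9.89 and 9.97 in knockouts, a spread like that of the 8 genes. Cops3, Ccdc47, Mettl1 and Bbs5 followed the order within narrow spans, such as 10.45 to 10.69 for Cops3. Without control 74 and knockout 72 the r values fell between -0.30 and 0.79, so the likeness rests largely on those mice.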

How the data were processed

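The deposited file holds 1 linear intensity per probe set and array. The sources used here do not give how the authors summarised probes and scaled these intensities, and the deposited intensities carry no detection calls. Names came from a 2016 platform annotation, in which 34945 probe sets have 1 symbol, 932 several and 9160 none. Only those with 1 symbol were used, and gene IDs of 34741 matched a GRCm38.p6 table, which changed 0 symbols.

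The log2 of the deposited intensity plus 1 was taken and quantile normalized between arrays. Probe sets with a mean under the median of these means, 6.50, were left out, leaving 17473. For each of the remaining 10654 genes the brightest probe set stood for the gene. Knockout was set against control in limma (3.58.1, under R 4.3.3; lmFit, eBayes, 2-sided, Benjamini-Hochberg adjustment over all 10654 genes, threshold 0.05). The procedure was tested on simulated data. Replicates are single mice numbered by the labels, with no number shared between groups. Precision is limited by having only 3 arrays in a group.

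The 8 genes and all lists were chosen with earlier results of these data known. The text names the 8 genes, the listed cholesterol enzymes that were tested, up to 4 genes a list with the smallest p, fixed regulators and the 6 most similar genes. Genes or counts by the order of mice were chosen after values were seen. Alternatives covered filter, normalization, pseudocount, probe sets, variance prior, array weights, threshold and each mouse left out. Some listed genes are not reported here.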

Additional observations from a re-analysis of the deposited data

How the results depend on the processing

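The count of 0 called genes among the 8, and of 0 among the 11 other enzymes, held in limma under all 16 alternatives, among them an adjusted p under 0.10. The lowest adjusted p of any of the 8 was 0.0639, for Sqle with array weights. With the 70th percentile filter 5 of the 8 were tested, and Sqle, Lss and Dhcr7 were not. Of 117 alternative values of the 8 log2 differences, 106 kept their sign and 11 turned it, with 0 called. With array weights, which gave knockout 72 a weight of 4.59 and control 74 a weight of 0.38, Idi1 turned to 0.50, Lss to 0.44, Fdft1 to 0.33 and Insig1 to 0.15. With 1 mouse left out, differences ran from -0.69 to 0.05 for Idi1, -1.02 to 0.09 for Lss, -0.54 to 0.12 for Fdft1 and -0.24 to 0.54 for Cyp51. The turns came without control 74 (Idi1 0.051, Lss 0.088, Fdft1 0.04), without knockout 86 (Idi1 0.02, Fdft1 0.12), and for Cyp51 without control 75 (-0.24) or knockout 72 (-0.23). The other ranges were 0.0081 to 0.36 for Hmgcs1, 0.24 to 0.80 for Sqle, -1.01 to -0.13 for Dhcr7 and -0.92 to -0.15 for Insig1. The cause was not tested.

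The count over all genes, 258, was 141 with the 70th percentile filter, where 7275 genes were tested, 1131 with array weights and 656 at an adjusted p under 0.10, and 45 to 241 with 1 mouse left out. It was 45, 105 and 68 when knockout 72, 73 or 86 was omitted, and 116, 241 and 62 when control 30, 74 or 75 was. Ch25h, whose alternatives were added after seeing the data, was called in all 14 alternatives that have a recorded value for it. There it differed by 1.55 to 2.00 (limma adjusted p 0.00177 to 0.0451). It was not tested with the 70th percentile filter, and its result in the test by probe set was not recorded. No paired analysis was possible because the groups share no replicate number. The table carries no background signal, so how far dim probe sets lie above it is unknown.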
